A study of Mus musculus with 9 samples.

Results

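The genes of the BCL2 family that keep cells alive or kill them were followed, together with Mdm2 and Mdm4, in hematopoietic stem cells (HSCs) of mice made to delete Bcl11a, a zinc finger repressor needed for lymphoid development. The 10 genes were listed by role: the survival genes Bcl2, Bcl2l1 and Mcl1, the pore formers Bax and Bak1, the killers Bbc3, Pmaip1 and Bcl2l11, and the p53 inhibitors Mdm2 and Mdm4. Each gene was read from its single-symbol probe set with the highest mean over all arrays. Such a probe set was found for 9 of the 10 among 22180 genes, and Bax was not analysed here.

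HSCs were sorted from bone marrow of mice aged 6 to 8 months on 9 arrays. The KO mice carried Mx1-Cre and 2 floxed Bcl11a alleles (3 arrays), the Het mice carried Mx1-Cre, 1 floxed and 1 wild-type allele (3 arrays), and the WT mice carried 2 floxed alleles and no Cre (3 arrays). Every mouse, WT included, had been given poly(I:C) in 5 doses, an interferon inducer; Cre here stands under the Mx1 promoter, which interferon activates in many cell types. WT and Cre-bearing cells therefore differed by Cre besides Bcl11a. The gate took CD150+ cells that were positive for Sca-1 and Kit and lacked lineage markers, CD48 and Flt3. Cells were YFP+ or YFP-, and the labels do not say which for an array.

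As background, BCL2, BCL-XL (the long product of Bcl2l1) and MCL1 sit on the mitochondrial outer membrane and hold back BAX and BAK1. When freed, BAX and BAK1 open pores that release cytochrome c, and caspases then dismantle the cell. BH3-only proteins tip this balance: BIM (Bcl2l11), PUMA (Bbc3) and NOXA (Pmaip1) occupy the groove of the survival proteins, and Bbc3 and Pmaip1 are switched on by p53. MDM2 and MDM4 keep p53 low and inactive, and p53 in turn activates Mdm2, which closes a negative feedback loop. Earlier work in lymphoid progenitors reported that Bcl2, Bcl2l1 and Mdm2 depend on Bcl11a, and the question here is how these genes read in stem cells.

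Values are log2 expression as the authors' RMA summaries give them, with mean ± SD over n = 3 arrays per genotype. RMA corrects background, brings the arrays to a common distribution and combines each set's probes. Levels are then meant to be compared between arrays for a gene but not between genes. The labels call the replicates biological. Array medians lay between 3.95 and 4.15. The deposited values still differed in spread: interquartile ranges ran from 2.22 on WT replicate 1 to 2.83 on KO replicate 1. WT replicate 1 stood apart: its mean correlation with the other 8 arrays was 0.861, where the other arrays had 0.88 to 0.909, and it held the lowest reading of 16.9% and the highest of 18.5% of 16636 genes tested. Bcl11a read 7.82, 7.90 and 8.66 in KO, 8.34, 8.37 and 8.89 in Het and 8.73, 8.81 and 8.38 in WT cells, so the array labelled KO replicate 3 lay within the WT range. A second Bcl11a probe set read 7.26, 6.94 and 7.39 in KO, 6.97, 6.70 and 7.44 in Het and 6.38, 8.08 and 6.93 in WT cells, a difference of 0.07 in KO minus WT. Neither the deleted part of the gene nor the probe positions were available here, so these readings do not check the deletion. Xist and Y-linked genes placed 1 of 3 KO, 1 of 3 Het and 2 of 3 WT arrays with female mice. On these 4 arrays of females the Y-linked genes, which are absent, read 2.22 to 3.32.

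No member passed the test in any comparison. Differences were tested with limma over 16636 genes, with Benjamini-Hochberg adjusted p-values and a threshold of 0.05. In KO minus WT, 0 of 9 members were called, where 0.0421% of all genes were. In Het minus WT, in KO minus Het and in the mean of KO and Het minus WT, 0 of 9 members and 0% of all genes were called. At an unadjusted p under 0.05 the count was 1 of 9 members in KO minus WT (8.21% of all genes), 1 of 9 in Het minus WT (4.89%), 0 of 9 in KO minus Het (4.56%) and 1 of 9 for KO and Het against WT (7.21%). That gene was Bcl2 each time. Arrays did not overlap, with the members lower, for 1 of 9 in KO minus WT (7.32% of all genes), 2 of 9 in Het minus WT (3.9%), 0 of 9 in KO minus Het (5.4%) and 1 of 9 for KO and Het against WT (1.36%). With the members higher, the counts were 0 of 9 (6.51%), 0 of 9 (4.51%), 1 of 9 (4.42%) and 0 of 9 (1.7%) in the same order. The median difference of the members was −0.10 in KO minus WT and −0.14 in Het minus WT, where the medians of all genes were −0.043 and −0.01. The comparisons share arrays, so their values are not independent of each other.

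The promoter of Bcl2, from RefSeq (GRCm38.p6), is shown because Bcl2 had the lowest p of the members; it spans the 250 bases before the annotated start, chr1:106714291-106714540, minus strand. The letters TGACCA, the short motif that the zinc fingers of BCL11A are known to bind, were searched on both strands, and the p53 half-site, the 10-base element that p53 binds in pairs, was searched by its consensus. Neither was found in this window, which says only that these letters are not there.
Bcl2: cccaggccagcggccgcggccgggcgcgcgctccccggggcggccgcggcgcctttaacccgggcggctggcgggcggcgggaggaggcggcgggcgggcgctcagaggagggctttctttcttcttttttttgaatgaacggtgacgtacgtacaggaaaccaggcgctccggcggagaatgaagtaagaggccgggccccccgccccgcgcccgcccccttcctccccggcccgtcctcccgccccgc
Windows were found for 9 of the 10 listed genes, 15 in all, since a gene can have several starts. TGACCA lay in 1 of the 15 windows, one of Bcl2l1, and in 11.4% of 32851 windows of all genes. The p53 half-site lay in 2 of the 15, those of Mdm2 and Bax, and in 7.13% of all windows, and no window of a member held both motifs. The Bcl2 window had a GC content of 74.8%, where the median of all windows was 52.4%.

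**Figure D1:**
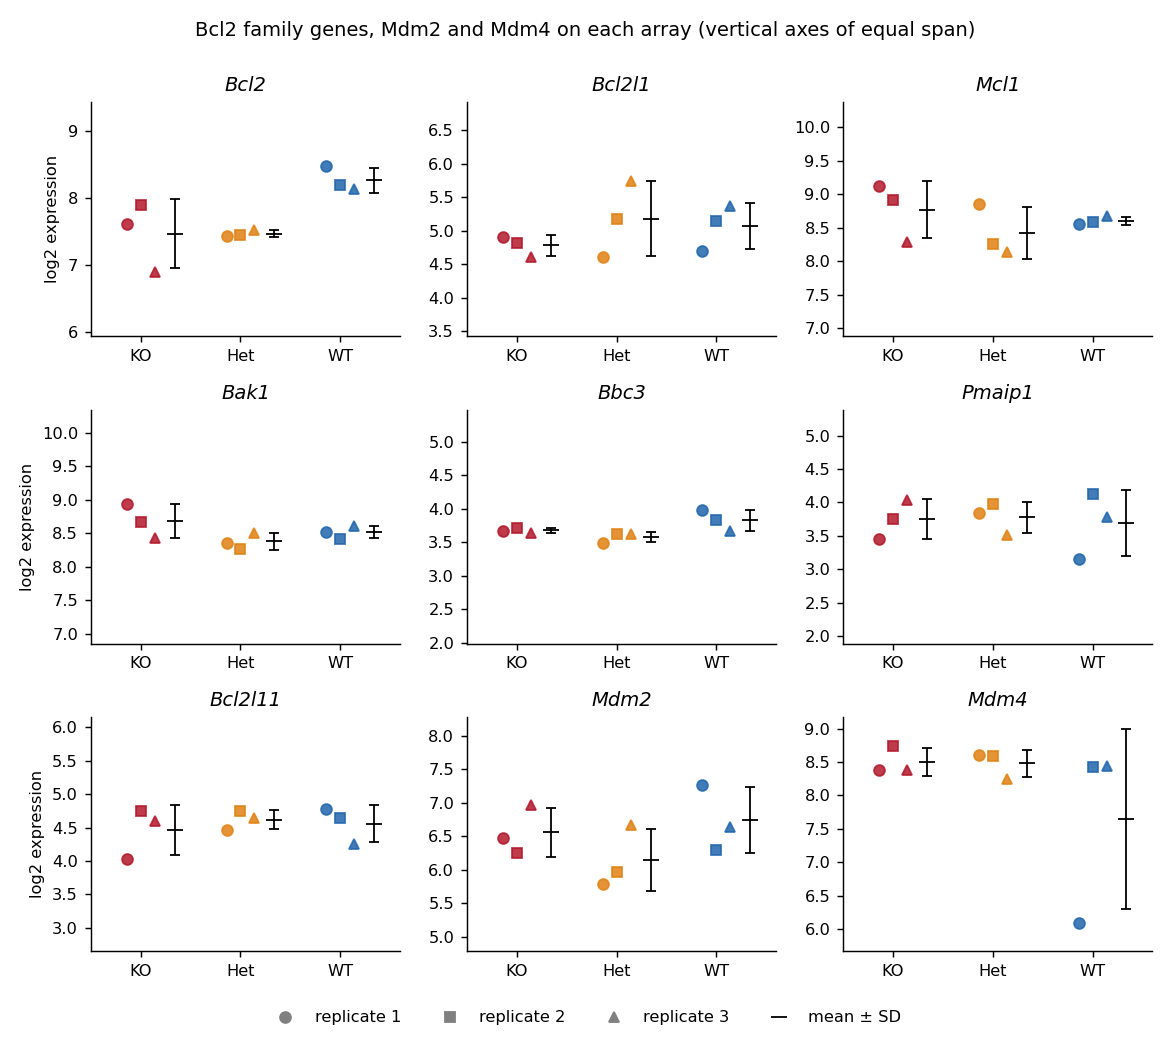
Each panel plots the log2 expression of a gene (vertical axis, same span in every panel) on the KO, Het and WT arrays; symbols are replicates 1 to 3 and black bars are mean ± SD. Bcl2 lies higher on all 3 WT arrays than on the 6 others, and Mdm4 is low on WT replicate 1, at 6.10.

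Bcl2, the founding survival gene of the family, read 7.61, 7.90 and 6.90 in KO, 7.43, 7.45 and 7.52 in Het and 8.48, 8.19 and 8.13 in WT cells. The groups did not overlap with WT: the lowest WT array stood 0.23 above the highest KO array and 0.61 above the highest Het array. The means were 7.47 ± 0.514 in KO, 7.47 ± 0.0473 in Het and 8.27 ± 0.187 in WT cells. The difference KO minus WT was −0.80 (SE 0.274, 95% confidence interval −1.41 to −0.19, adjusted p = 0.54 with limma), which is a level 1.74-fold lower in KO cells. Het minus WT was also −0.80 (interval −1.41 to −0.19, adjusted p = 0.91 with limma). KO and Het cells had the same mean, with a difference of 0.00 and an interval from −0.61 to 0.61.

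With all 6 arrays that carried Cre and a deleted allele set against the 3 WT arrays, Bcl2 differed by −0.80 (interval −1.33 to −0.27, adjusted p = 0.508 with limma). An exact permutation test on the absolute difference of these 6 and 3 arrays gave a two-sided p of 0.0119, the smallest that the design allows, without adjustment for the other genes. Of all genes, 1.36% were lower without overlap in this comparison, and 1.26% had a lower difference than Bcl2. Exact tests of 3 arrays against 3 gave 0.1 for KO with WT and for Het with WT, the smallest possible there; 7.32% and 3.9% of all genes were lower without overlap in these. Within female mice Bcl2 differed by −1.40 in KO minus WT (1 and 2 arrays) and −0.79 in Het minus WT (1 and 2). Within male mice the differences were −0.43 (2 and 1) and −0.75 (2 and 1). Without the array labelled KO replicate 3, the lowest of all, KO minus WT was −0.51, and without WT replicate 1 it was −0.69.

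Bcl2 had a second probe set. It gave 4.60, 4.50 and 4.08 in KO, 4.83, 4.49 and 5.73 in Het and 5.98, 5.07 and 4.56 in WT cells. Its differences were −0.81 in KO minus WT and −0.19 in Het minus WT, and its arrays overlapped between groups in both. The KO differences of the probe sets were close and their Het differences were not, and the sets correlated at r = 0.57 over the 9 arrays. The highest reading of the second set, 5.98, came from WT replicate 1, and WT replicate 3 at 4.56 lay among the KO readings. The differences without single arrays given above are those of the first probe set, and for the second set they were not computed. Besides WT replicate 1, the WT readings of the second set, 5.07 and 4.56, lay within its Het range of 4.49 to 5.73.

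Marker lists of cell identity also stood at different levels on these arrays. The mean over 13 measured HSC markers ranged from 7.54 to 8.20 in KO, 7.40 to 7.77 in Het and 5.92 to 7.20 in WT cells, without overlap between WT and the others, and all 13 had higher means in KO and in Het than in WT cells, though 0 of 13 passed over all genes. B cell markers (8 measured) ranged from 3.86 to 4.02 in KO, 4.19 to 4.39 in Het and 4.37 to 4.51 in WT cells. Granulocyte and monocyte markers (14 measured) ranged from 4.74 to 4.91 in KO, 4.89 to 5.70 in Het and 5.09 to 5.67 in WT cells. T and NK cell markers (11 measured) ranged from 3.71 to 3.97 in KO, 3.57 to 4.0 in Het and stood at 3.96 on each WT array. These means hide opposite differences: in KO minus WT 2 of 9 tested genes were higher and 7 lower (median −0.25). Klrb1c differed by 2.18 and Nkg7 by −1.75, each without overlap, and neither passed. Of the B cell genes H2-Ab1, a class II gene that other antigen-presenting cells share, averaged 6.95 in KO, 7.51 in Het and 8.33 in WT cells. Cd79a, part of the B cell receptor, averaged 3.22 in KO, 3.50 in Het and 3.68 in WT cells, close to where absent transcripts read, and Pax5, the B cell identity factor, 4.44, 4.76 and 4.85 in that order of groups. The granulocyte and monocyte genes split: 3 of 14 were higher and 11 lower in KO minus WT (median −0.30), and 8 were higher and 6 lower in Het minus WT (median 0.13). S100a8 differed by −3.86, Lyz2 by −1.03 and Itgam by 1.21 in KO minus WT, and none passed. The part of these shifts in the Bcl2 difference was not tested. In sorted cells fewer cells of a type and less RNA per cell cannot be told apart.

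Bcl2l1 encodes BCL-XL, which is known for the survival of red cell precursors and platelets. It read 4.91, 4.81 and 4.61 in KO, 4.61, 5.18 and 5.74 in Het and 4.70, 5.15 and 5.37 in WT cells. All 3 KO arrays lay below the WT mean, but the groups overlapped in every comparison. Between KO and WT the difference (KO minus WT) was −0.30 (interval −0.98 to 0.39, adjusted p = 0.786 with limma), Het minus WT 0.10 (−0.58 to 0.79) and KO minus Het −0.40 (−1.09 to 0.29). The Het mean was the highest and the KO mean the lowest, and neighbours in that order did not differ beyond the spread of 0.565 (SD) among the Het arrays.
The window with TGACCA, here on the reverse strand and in capitals, is shown as the only one among the members, chr2:152828490-152828739, minus strand, GRCm38.p6:
Bcl2l1: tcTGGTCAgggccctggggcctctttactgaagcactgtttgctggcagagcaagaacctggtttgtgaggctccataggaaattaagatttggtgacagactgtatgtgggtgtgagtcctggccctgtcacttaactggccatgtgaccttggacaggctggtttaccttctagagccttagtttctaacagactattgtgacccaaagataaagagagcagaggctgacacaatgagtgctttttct
The motif began 248 bases before the start of this transcript, and the other 2 windows of Bcl2l1 did not hold it.

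Mcl1 encodes a survival protein that HSCs are known to need and that turns over quickly. It read 9.12, 8.91 and 8.29 in KO, 8.86, 8.26 and 8.14 in Het and 8.55, 8.58 and 8.67 in WT cells. The WT arrays lay close together (SD 0.0624), while KO and Het arrays spread to both sides of them (SD 0.432 and 0.386). The KO minus WT difference was 0.17 (interval −0.45 to 0.80, adjusted p = 0.868 with limma) and Het minus WT −0.18 (−0.81 to 0.45). KO minus Het was 0.35 (−0.27 to 0.98). The second Mcl1 probe set gave 0.13 in KO minus WT and −0.12 in Het minus WT, the same signs, though its own WT arrays ran from 7.0 to 8.06. Without KO replicate 1 the KO minus WT difference of the first probe set was 0.00 and without KO replicate 3 it was 0.42, and Het minus WT was −0.40 without Het replicate 1 and −0.04 without Het replicate 3. In order of means KO stood above WT and WT above Het, an order that single arrays could remove, with overlap between all neighbours.

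Bak1 encodes the pore former that can act without BAX. It read 8.94, 8.67 and 8.43 in KO, 8.36, 8.26 and 8.51 in Het and 8.52, 8.42 and 8.61 in WT cells. KO replicates 1 and 2 exceeded every WT and Het array, and the array labelled KO replicate 3 lay among them. The difference KO minus WT was 0.16 (interval −0.32 to 0.65, adjusted p = 0.838 with limma), Het minus WT −0.14 (−0.62 to 0.34) and KO minus Het 0.30 (−0.18 to 0.79). Without KO replicate 1 the KO minus WT difference was 0.03.

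Bbc3, the gene of PUMA, read 3.67, 3.72 and 3.64 in KO, 3.49, 3.62 and 3.63 in Het and 3.98, 3.83 and 3.67 in WT cells. All readings lay just above the range of absent Y-linked transcripts, and no detection calls were used. All 3 Het arrays were below all 3 WT arrays by at least 0.04 and below all 3 KO arrays by at least 0.01, gaps smaller than the SD of the WT arrays (0.155). Of all genes 3.9% were lower without overlap in Het minus WT. Het minus WT was −0.25 (interval −0.69 to 0.20, adjusted p = 0.992 with limma) and KO minus WT −0.15 (−0.59 to 0.29).

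Pmaip1, the gene of NOXA, which binds MCL1 in particular, read 3.45, 3.75 and 4.04 in KO, 3.85, 3.97 and 3.52 in Het and 3.15, 4.13 and 3.78 in WT cells. WT replicate 1 fell in the range of absent transcripts and WT replicate 2 was the highest of the 9 arrays. The genotype means lay between 3.69 and 3.78, and KO minus WT was 0.06 with an interval from −0.59 to 0.71. Its sign turned to −0.21 without WT replicate 1.

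Bcl2l11, the gene of BIM, which removes lymphocytes deprived of cytokine, read 4.03, 4.74 and 4.60 in KO, 4.47, 4.74 and 4.65 in Het and 4.77, 4.65 and 4.25 in WT cells. The groups overlapped throughout. Between KO and WT the difference (KO minus WT) was −0.10 (interval −0.67 to 0.47), Het minus WT 0.06 (−0.51 to 0.64) and KO minus Het −0.16 (−0.74 to 0.41).

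**Figure D2:**
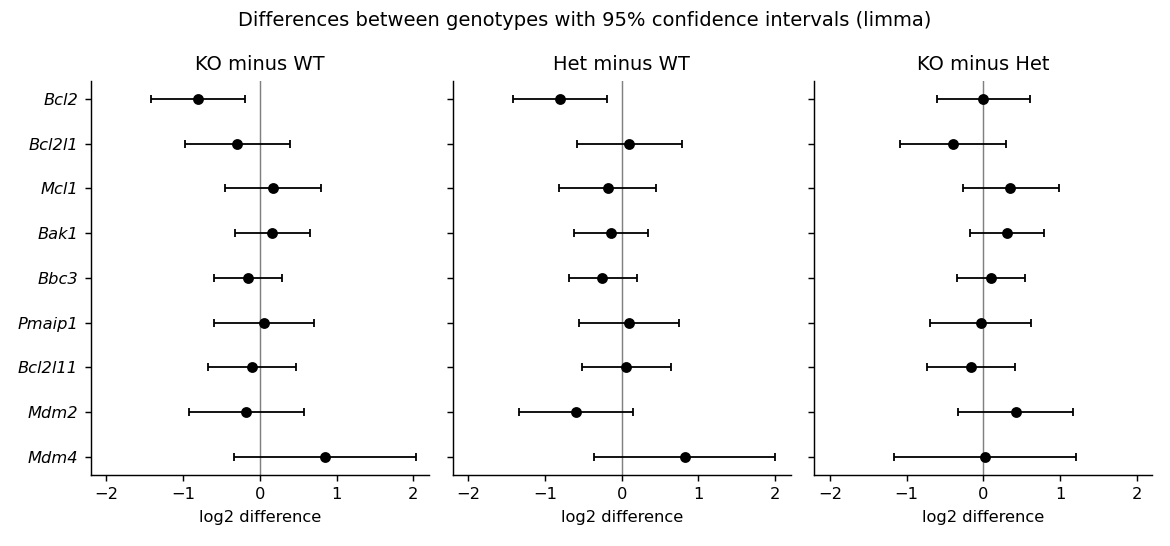
Points are log2 differences of the 9 members (rows) in KO minus WT, Het minus WT and KO minus Het; bars are 95% confidence intervals from limma, not adjusted for the number of genes. The Bcl2 interval lies below 0 in both comparisons with WT (−1.41 to −0.19), and every other interval spans 0.

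Mdm2 encodes the ubiquitin ligase that marks p53 for destruction. It read 6.47, 6.25 and 6.96 in KO, 5.79, 5.97 and 6.67 in Het and 7.27, 6.30 and 6.64 in WT cells. Het replicates 1 and 2 were the lowest of all arrays and WT replicate 1 the highest, and the groups overlapped. Het minus WT was −0.59 (SE 0.336, interval −1.34 to 0.15, adjusted p = 0.992 with limma), and 3.94% of all genes had a lower difference. The KO minus WT difference was −0.18 (interval −0.92 to 0.57) and KO minus Het 0.42 (−0.33 to 1.16). Within female mice KO minus WT was 0.00 and Het minus WT −0.29, and within male mice they were 0.06 and −0.42. Without WT replicate 1, Het minus WT was −0.33 and KO minus WT 0.09. By means WT stood above KO and KO above Het, and no neighbours in that order were separated on every array.
The window before the annotated start of Mdm2 is shown for its p53 half-site, in capitals, and lies at chr10:117710759-117711008, minus strand, GRCm38.p6:
Mdm2: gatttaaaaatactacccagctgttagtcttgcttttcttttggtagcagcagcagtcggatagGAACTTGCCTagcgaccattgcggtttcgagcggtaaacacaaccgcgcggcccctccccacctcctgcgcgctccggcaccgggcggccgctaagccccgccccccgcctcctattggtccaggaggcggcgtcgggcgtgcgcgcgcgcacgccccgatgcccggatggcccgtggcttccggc
The half-site began 186 bases before the start. A match in these letters, which 7.13% of all windows held, is a description. Binding was not measured, and whether this half-site serves the p53 loop was not tested.

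Mdm4 encodes the relative of MDM2 that blocks the activation domain of p53. It read 8.38, 8.74 and 8.38 in KO, 8.60, 8.59 and 8.24 in Het and 6.10, 8.42 and 8.44 in WT cells. WT replicate 1 stood alone at 6.10, and the other 8 arrays lay between 8.24 and 8.74. With all arrays KO minus WT was 0.85 (SE 0.531, interval −0.33 to 2.03, adjusted p = 0.687 with limma) and Het minus WT 0.82 (−0.36 to 2.00, adjusted p = 0.992). Without WT replicate 1 these differences were 0.07 and 0.05. Within male mice, which leave out that array, they were 0.14 and 0.17, and within female mice 1.11 and 0.97. KO minus Het was 0.02 (−1.16 to 1.20). The platform gave Mdm4 no second single-symbol probe set to set beside this reading.

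**Figure D3:**
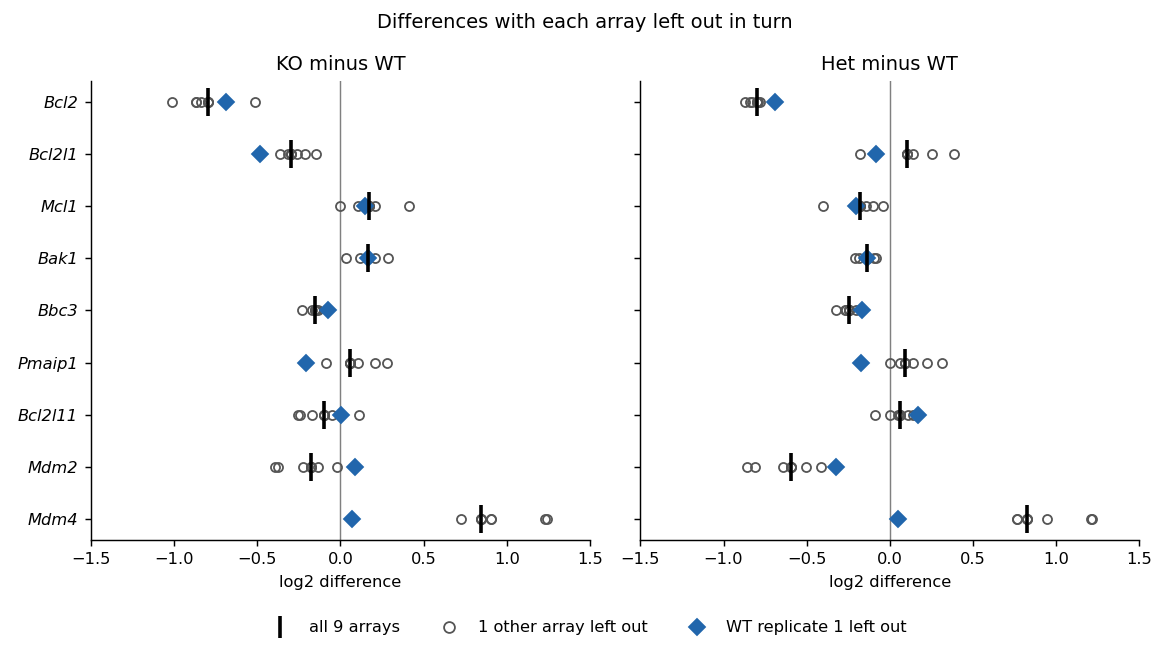
Log2 differences of the 9 members in KO minus WT and Het minus WT with all arrays (black bars), with WT replicate 1 left out (blue diamonds) and with 1 other array left out (open circles). The Mdm4 differences of 0.85 and 0.82 shrink to 0.07 and 0.05 without WT replicate 1. Bcl2, read from its first probe set only, stays between −1.01 and −0.51 in KO minus WT and between −0.87 and −0.69 in Het minus WT.

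The genes with readings most like those of a member were ranked over all genes tested. By Pearson's r over the 9 arrays, described without a test, Bcl2 was most like Hspb8, a small heat shock protein (r = 0.95), Ptprm, a receptor phosphatase (0.95), and Cdpf1 (0.94). These kept r of 0.88, 0.85 and 0.92 without the 2 arrays farthest from the Bcl2 median. Mdm2 was most like Psmc2, a proteasome subunit (0.95), Fam111a (0.94) and Zfp606 (0.93), with 0.87, 0.85 and 0.90 without 2 arrays. Mdm4 was most like Sf1, a splicing factor (0.98), Slc35e1 (0.97) and Gata2, a transcription factor of HSCs (0.96). Without the 2 arrays farthest from the Mdm4 median, which include WT replicate 1, these were 0.69, 0.07 and 0.06. The genes named were the highest of 16636, and all points share the arrays, their amplification and their normalization.

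Between members, correlations over the 9 arrays ran in both directions. Of their pairs, Bcl2 with Bbc3 had the highest r (0.77), followed by Pmaip1 with Mdm4 (0.72) and Mcl1 with Bak1 (0.67). The lowest were Bbc3 with Mdm4 (−0.77), Mdm2 with Mdm4 (−0.72) and Bak1 with Bcl2l11 (−0.67). Each pair of Mdm4 includes its reading of 6.10 on WT replicate 1. Mcl1 and Bak1 kept r = 0.55 and Bcl2 and Bbc3 r = 0.50 around the genotype means.

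No gene of the wider family passed the test. Of 5 other survival genes 2 could be tested: Bcl2l2, which encodes BCL-W, differed by −0.11 in KO minus WT and −0.08 in Het minus WT, and Bcl2a1a by 0.05 and 0.02. Of 9 other death genes 6 could be tested and 0 passed, with a median of −0.22 in KO minus WT and −0.10 in Het minus WT. Bnip3, a mitochondrial gene of hypoxia and mitophagy, read 4.83, 4.98 and 5.10 in KO and 4.49, 4.73 and 4.40 in WT cells, without overlap (0.43, adjusted p = 0.644 with limma), where 6.51% of all genes were higher without overlap. Bad, a BH3-only gene controlled by growth factor signals, differed by −0.36 in KO minus WT and −0.38 in Het minus WT, and Bik by −0.26 and 0.12. Bid, which links death receptors to mitochondria, differed by −0.35 in Het minus WT, with WT replicate 1 at 6.18 and the other 8 arrays between 4.61 and 5.31; without WT replicate 1 it was 0.08.

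Genes that act on p53 went both ways. Of 16 listed 15 were tested and 0 passed; Trp53, the gene of p53, was not analysed here. The median difference was 0.11 in KO minus WT and 0.08 in Het minus WT. Ppm1d encodes the phosphatase WIP1, which switches p53 signalling off and is itself a p53 target. It read 5.93, 5.92 and 5.33 in KO, 5.58, 5.04 and 5.83 in Het and 6.26, 6.33 and 6.82 in WT cells. All 6 arrays with Cre were below all 3 WT arrays, an order that held for 1.36% of all genes, Bcl2 among them. KO minus WT was −0.74 (SE 0.291, adjusted p = 0.563 with limma) and Het minus WT −0.99 (SE 0.291, adjusted p = 0.758). Its sign was the same within female (−1.21 and −0.71) and within male mice (−0.41 and −1.02), and without any single array KO minus WT lay between −0.85 and −0.54. Trp53bp1, a scaffold at DNA breaks, differed by 0.66 in KO minus WT and 0.78 in Het minus WT, and by 0.32 and 0.45 without WT replicate 1. Atm, a kinase that activates p53 after DNA breaks, differed by 0.68 in KO minus WT and 0.18 in Het minus WT. Without WT replicate 1 these were 0.23 and −0.27, and without WT replicate 3 they were 1.05 and 0.55. Chek2, another such kinase, differed by 0.04 in KO minus WT and −0.92 in Het minus WT. Neither Atm nor Chek2 passed.

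Targets of p53 differed in both directions. Of 30 listed 25 were tested and 0 passed. In KO minus WT 13 were higher and 12 lower, with a median of 0.03, and in Het minus WT 15 were higher and 10 lower, with a median of 0.13. Cdkn1a, the cell cycle inhibitor p21 and the best known target, read 5.26, 4.26 and 4.43 in KO, 5.64, 4.72 and 4.64 in Het and 5.15, 5.65 and 4.87 in WT cells. KO minus WT was −0.57 (interval −1.38 to 0.24, adjusted p = 0.693 with limma) and Het minus WT −0.22 (−1.03 to 0.59), with overlap of the arrays. Sesn1, a sestrin that restrains growth signalling under stress and is also driven by FOXO factors, read 7.73, 7.37 and 7.22 in KO, 6.84, 7.24 and 7.28 in Het and 6.42, 6.82 and 6.30 in WT cells. All 6 arrays with Cre were above all 3 WT arrays, which held for 1.7% of all genes. KO minus WT was 0.93 (SE 0.249, adjusted p = 0.38 with limma) and Het minus WT 0.61 (adjusted p = 0.972). Without any single array KO minus WT lay between 0.78 and 1.08.

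Other targets with the lowest p were Plk2, a kinase (0.89 in KO minus WT), and Xpc, a DNA repair gene (0.61). Plk2 was 0.36 without KO replicate 1 and 1.46 without KO replicate 3, and Xpc was 0.28 without WT replicate 1. In Het minus WT they were Ddit4, an inhibitor of growth signalling (1.51), and Btg2, an antiproliferative gene (1.16). None passed. Ddit4 read 4.19, 6.39 and 5.40 in Het and 3.26, 4.33 and 3.87 in WT cells, and without Het replicate 2 its difference was 0.98. The Btg2 difference was 1.74 without WT replicate 3. Btg2 and Plk2 are also known as immediate early genes, and the mean of 16 immediate early genes ran on the same arrays from 5.69 to 6.98 in KO, 5.74 to 6.91 in Het and 5.11 to 5.87 in WT cells. The part of that response in their values was not tested.

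The machinery downstream of the mitochondrial pore gave no call among 16 of 18 listed genes that were tested. The median difference was 0.09 in KO minus WT and 0.01 in Het minus WT. Htra2, a protease released with cytochrome c, read 8.57, 7.97 and 7.78 in KO, 8.30, 7.63 and 7.41 in Het and 5.77, 6.91 and 8.04 in WT cells (KO minus WT 1.20, adjusted p = 0.583 with limma). Its difference was 0.63 without WT replicate 1 and 1.77 without WT replicate 3. Diablo, which relieves the inhibition of caspases, read 6.25, 6.78 and 4.24 in KO and 6.76, 6.66 and 7.20 in WT cells. Its KO minus WT difference of −1.12 was −0.36 without the array labelled KO replicate 3. Casp8, the initiator caspase of death receptors, differed by 0.50 in KO minus WT (0.27 without WT replicate 1) and −0.24 in Het minus WT. Casp9, that of the mitochondrial route, differed by −0.16 in KO minus WT and −0.38 in Het minus WT. Dffa, the inhibitor of the apoptotic DNase, differed by −0.28 in KO minus WT and by 0.35 in Het minus WT. Its KO arrays lay below all its WT arrays, as they did for 7.32% of all genes. None of the genes named here passed.

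**Figure D4:**
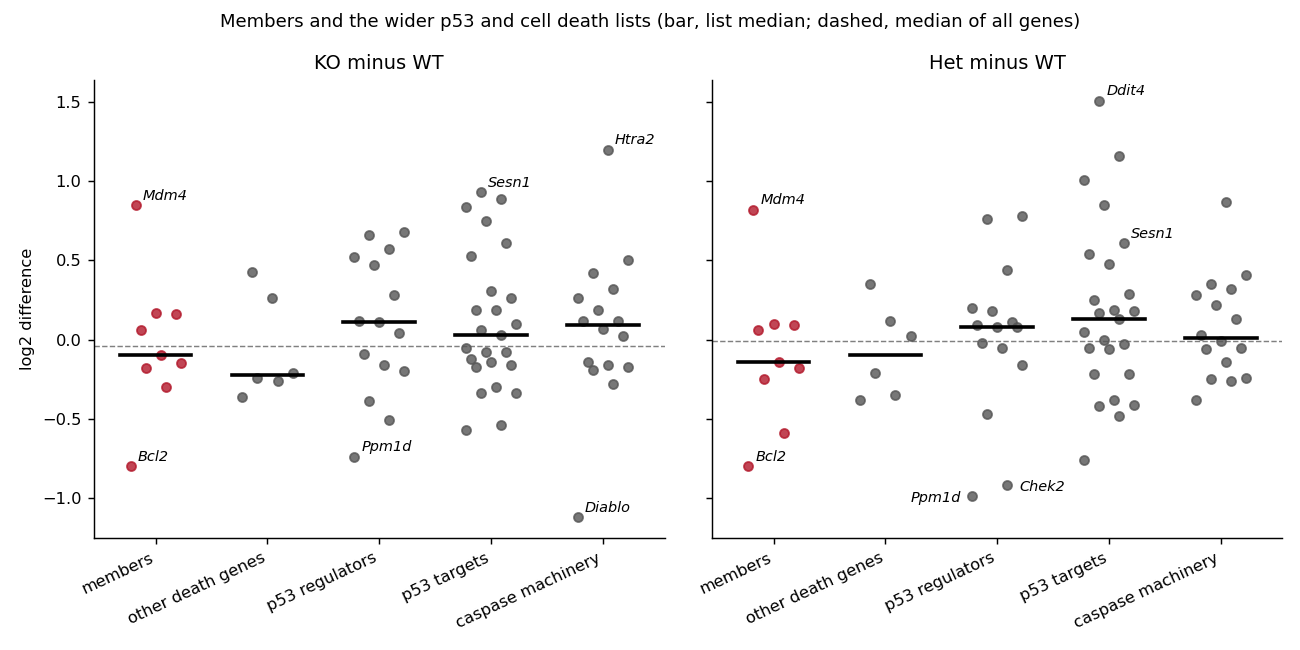
Each point is the log2 difference of a gene in KO minus WT or Het minus WT, by list (horizontal axis); bars are list medians and the dashed line is the median of all genes tested. List medians lie between −0.22 and 0.13, and no gene shown passed the test over all genes.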

How the data were processed

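Per the labels' protocols, RNA of sorted HSCs went through Ribo-SPIA amplification before loading on Mouse Gene 2.0 ST arrays (Affymetrix). The authors deposited log2 values, 1 for each probe set, and name RMA in the submitters' processing notes without version or settings. The platform table gave 1 symbol for 23521 of 41345 probe sets and several for 1814, and it did not list 16010; symbols were updated through gene identifiers (23328 matched).

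Where a gene had several probe sets, that of highest mean stood for it, which gave 22180 genes. A filter at the 25th percentile of gene means (3.31) kept 16636 genes and all 9 measured members. limma 3.58.1 (R 4.3.3) estimated 1 mean for each genotype from the 9 arrays (6 residual and 4.26 prior degrees of freedom), with two-sided Benjamini-Hochberg adjusted p-values over all genes tested. The fit was also run on simulated data with independent normal noise and no outlying array. That run checked the code and not the power in data with an array like WT replicate 1. Single genes were also given an exact permutation test, where 3 arrays against 3 reach 0.1 and 6 against 3 reach 0.0119. Sex was read from Xist (log2 above 6). The number of arrays limits the precision: the median SE of KO minus WT was 0.298.

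The members, lists and tests were chosen with earlier results of these data known. Genes named were all members, Cdkn1a, up to 3 genes with the smallest p in each comparison with WT from each other list described (for marker lists, some of these), and the 3 genes most like Bcl2, Mdm2 and Mdm4, without predicted genes, smell receptors or small RNAs. Promoters came from RefSeq GRCm38.p6. Alternatives changed the filter, the normalization, array weights, sex, interquartile range, replicate block, probe sets, groups in the fit and single arrays.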

Additional observations from a re-analysis of the deposited data

Results flagged for a closer look

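Some members moved one way in female mice and the other way in male mice, with every KO array on its side of every array compared. The differences below are female first, then male, and the last value of each sentence is the female minus the male difference; a sex held 1 or 2 arrays per genotype, sex was read from the data, and none of these differences between the sexes was tested. In KO minus WT, Mcl1 differed by −0.32 and 0.44, a gap of −0.76. Bak1 differed by −0.13 and 0.38 in KO minus WT, a gap of −0.52, and by −0.08 and 0.50 in KO minus Het, a gap of −0.58. Pmaip1 differed by 0.58 and −0.53 in KO minus WT, a gap of 1.10, and by 0.52 and −0.31 in KO minus Het, a gap of 0.83. Bcl2 differed by −0.62 and 0.32 in KO minus Het, a gap of −0.94. Opposite directions of this kind between Het and WT arrays were found for 19% of all genes and for no member. With the KO arrays they were found for 22.8% of all genes in KO minus WT and 30.2% in KO minus Het, and for 3 of 9 members in each. The female KO array is the one labelled KO replicate 3, so sex and that array cannot be told apart in these values.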

How the results depend on the processing

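Over 4 comparisons the 9 members gave 36 differences, recomputed under 603 alternatives in all. No member was called under any of them; the smallest adjusted p was 0.337. Of the 36, 20 kept their sign throughout, and the largest that turned was 0.18 in size. All 7 of at least 0.5 kept theirs, Mdm4 only just (0.07 and 0.05 without WT replicate 1). Bcl2 in Het minus WT was −0.49 with both probe sets averaged, and Bbc3 in KO minus WT moved most against its spread, to −0.01 when quantile normalized again. The number of genes called in KO minus WT, 7 in the report's setting, was 3 when quantile normalized again, 24 with array weights, 3 with sex as a term, 0 with a term for the interquartile range and 1 with only the groups compared. Leaving out single arrays gave 0 (WT replicate 1 or KO replicate 1) to 15 (KO replicate 3); 1 gene was called without Het replicate 1 or WT replicate 2, 2 genes without KO replicate 2 or WT replicate 3, and 3 without Het replicate 3. For KO and Het minus WT it was 0, and 0 to 4 with an array left out: 4 without WT replicate 3, 3 without KO replicate 3 and 1 without Het replicate 1. Het minus WT and KO minus Het stayed at 0 throughout. The causes were not tested. No pairing by replicate number was evident, though deviations around means of 3 arrays cannot show that none exists. Deviations of arrays with the same number correlated between −0.19 and 0.23. Of 18 fits between an array and another genotype, 2 were best with the own number. The replicate block gave 0 genes in KO minus WT and 0 members.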

Other observations

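Interferon-stimulated genes, which poly(I:C) induces, gave 0 calls among 15 tested. In KO minus WT 7 were higher and 8 lower (median 0.00), and in Het minus WT 7 were higher and 8 lower (median −0.05). Their mean over 16 measured genes ran from 5.52 to 5.95 in KO, 5.53 to 5.86 in Het and 5.42 to 5.81 in WT cells. Irf9 differed by 0.68, Gbp7 by 1.10 and Ifit3 by −0.41 in KO minus WT, and Ifit1 by 1.01, Gbp7 by 0.64 and Usp18 by 0.48 in Het minus WT. Markers of multipotent and lymphoid progenitors, in which dependence of the survival genes on Bcl11a was reported, gave 0 calls among 9 tested, with means over 10 genes of 4.54 to 4.69 in KO, 4.46 to 4.98 in Het and 4.56 to 4.96 in WT cells. In KO minus WT 2 of these 9 were higher and 7 lower (median −0.17). In Het minus WT 7 were higher and 2, Flt3 and Cd52, were lower (median 0.30). Cd34 averaged 9.56 in KO, 8.29 in Het and 7.94 in WT cells (KO minus WT 1.62). Flt3, the receptor that the gate excludes, averaged 3.72 in KO, 3.99 in Het and 4.78 in WT cells, and Cd52 averaged 4.42 in KO, 4.65 in Het and 6.38 in WT cells. Among HSC markers Mllt3 differed by 1.53, Hoxb5 by 2.24 and Mecom by 1.94 in KO minus WT, without passing the test (adjusted p = 0.0566, 0.0566 and 0.137 with limma). The means ran from 4.40 to 5.88 in KO, 4.81 to 5.74 in Het and 5.24 to 5.68 in WT cells for erythroid markers, and from 6.36 to 7.07, 6.32 to 7.14 and 6.15 to 6.81 in the same order for megakaryocyte and platelet markers. For mast cells and basophils they ran from 3.07 to 3.43 in KO, 3.20 to 3.48 in Het and 3.41 to 3.78 in WT cells, and for stroma and endothelium from 4.75 to 4.96, 4.37 to 4.70 and 4.27 to 4.62. The stroma and endothelium genes split in KO minus WT: of 7 tested, 3 were higher and 4 lower (median −0.06), and none passed. The 3 higher were Pecam1 (1.97), Kdr (1.24) and Emcn (1.19).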
